A study of Mus musculus with 2 samples.

Results

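Chaperones are proteins that help other proteins fold, and the set described here holds the heat shock proteins and folding chaperones printed on an Agilent mouse two-colour array. Members were chosen by gene symbol, not by signal. They were the HSP70, HSP110, HSP90 and small heat shock protein genes, the J-domain (Dnaj), chaperonin (Cct, Tcp1), BAG, protein disulfide isomerase (Pdia, P4hb) and FK506-binding protein (Fkbp) genes, the reticulum lectins Calr and Canx, Hyou1, Hsf1 and Hsf2, and the helpers St13, Stip1, Ahsa1 and Serp1. The rule found 87 probes of 20868, which stood for 83 genes of 20703 genes or unnamed transcripts. Of the 83 genes, 81 had a value and 78 passed the background filter, meaning that at least 1 genotype was well above background on both arrays. No probe matched Hsf1, Ahsa1, Hspd1, Hspb1 or Hspa1a by symbol. Outlier flags removed Hsp90aa1 and Fkbp10, and Hsf2, Dnaja4 and Dnajc28 were below the filter.

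The RNA came from ovarian granulosa cells of female C57/Bl6 mice aged 23 to 25 days. They were of genotype Esr2-/- (null), which lack estrogen receptor beta, or Esr2+/- (het), which carry 1 intact copy and served as controls. All mice had received PMSG, a gonadotropin that drives follicle growth, for 48 h. Cells were pooled into 1 RNA sample per genotype, and the pair was hybridised to 2 two-colour arrays, with the null pool in Cy5 on array 1 and in Cy3 on array 2. The number of mice in each pool is not given in the sources used here, and no wild-type pool is in the comparison. Ratios are log2 null over het unless called a fold. An SD after ± is over the 2 technical hybridisations, so it holds dye and hybridisation error only, and no test across animals was possible.

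Each array held 21318 non-control spots, of which 87.2 to 95.1% were well above background in each channel. The ratio of the Esr2 probe was -0.48 ± 0.03, and whether it lies in the deleted part of the gene is not given in the sources used here. The granulosa markers fitted the labelled cell type, in that all 9 measured of 10 listed were above background in both pools, but their median ratio was -0.49. Their summed signal was 11509.8 units in the null pool and 29174.7 in the het pool on array 1, and 13574 and 20684 units on array 2. The oocyte markers were also well above background in both pools for 11 of 14 listed genes. The null pool was above the het pool for all 11 on each array, with a median ratio of 0.56. In signal summed over those 11 genes, the null pool had 18353 and the het pool 10346.5 units on array 1, and 14994 and 10479.9 units on array 2. None of the measured oocyte markers was at 0, and Figla was not above background. Markers of other cell types had signal as well. The 3 measured erythroid genes summed to 81074.4 units in the null pool and 135772 in the het pool on array 1. On array 2 they summed to 139006 and 68193 units, the opposite order. Median ratios were -0.06 for theca, 0.02 for leukocyte, -0.04 for endothelium and 0.09 for stroma markers. Among those, Lyz2 (0.46 ± 0.05) and Dcn (0.39 ± 0.06) were farthest from 0. The share of all these cells in any chaperone ratio below was not tested, and in pooled RNA more cells of a type and more RNA per cell cannot be told apart.

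Cytosolic chaperones work as a relay. J-domain proteins deliver unfolded chains to HSP70, HSP110 and BAG proteins make HSP70 release them, and HSP90 with its FKBP and tetratricopeptide helpers finishes clients such as steroid receptors. The chaperonin TRiC, a double ring built from CCT subunits, encloses actin and tubulin. In the reticulum, BiP, GRP94, the lectin chaperones and the disulfide isomerases fold secreted and membrane proteins, which granulosa cells make in the form of inhibins and matrix. A separate set in mitochondria pulls in and folds imported proteins. Cytosolic members are classic targets of heat shock factor 1, which reads GAANNTTC repeats, whereas many reticulum members answer the unfolded protein response through its stress element.

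In these pools the differences in chaperone signal were small. By a rule of at least 2-fold in the mean and 1.5-fold on each array, 0 of 78 members were higher in null and 0 were lower, against 0.0378% and 0.0918% of all 18517 genes and 0.13% and 0.216% of the 4630 brightest. With shares that low, 0 of 78 does not set the members apart from other genes. All 78 mean ratios were under 0.5 in size, and the share of all genes under that size was not computed. By a lower threshold, at least 1.2-fold in the mean and 1.1-fold on each array, 3 members were higher (Hsph1, Cct8 and Fkbp7) and 1 was lower (Dnajb13), against 2.65% and 1.75% of all genes and 5.49% and 3.87% of the brightest. The members' share is near that background. On both arrays alike, 28 of 78 were higher and 13 lower, against 22.7% and 24.3% of all genes and 25.6% and 25.9% of the brightest. The other 37 members had opposite signs.

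Cytosolic and nuclear members had a positive median on both arrays after loess normalisation. Of the 47 that passed the filter, 22 (46.8%) were higher in null on both arrays and 4 (8.51%) were lower on both. Their median ratio was 0.08, with 0.09 on array 1 and 0.05 on array 2, whereas the median of all genes was -0.00380. Of the 18 reticulum members, 2 were higher and 6 lower on both arrays, and the median was -0.06. Of the 6 mitochondrial members, 1 was higher and 2 were lower on both arrays, and the median was -0.03. Under median centring of each array in place of loess, only 6 of the 47 cytosolic members were higher on both arrays and 1 lower, while 7.88% and 7.99% of all genes were. The cytosolic medians were then 0.30 on array 1 and -0.16 on array 2, so the sign on array 2 turned with the normalisation. Differences of medians between compartments were not tested.

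**Figure D1:**
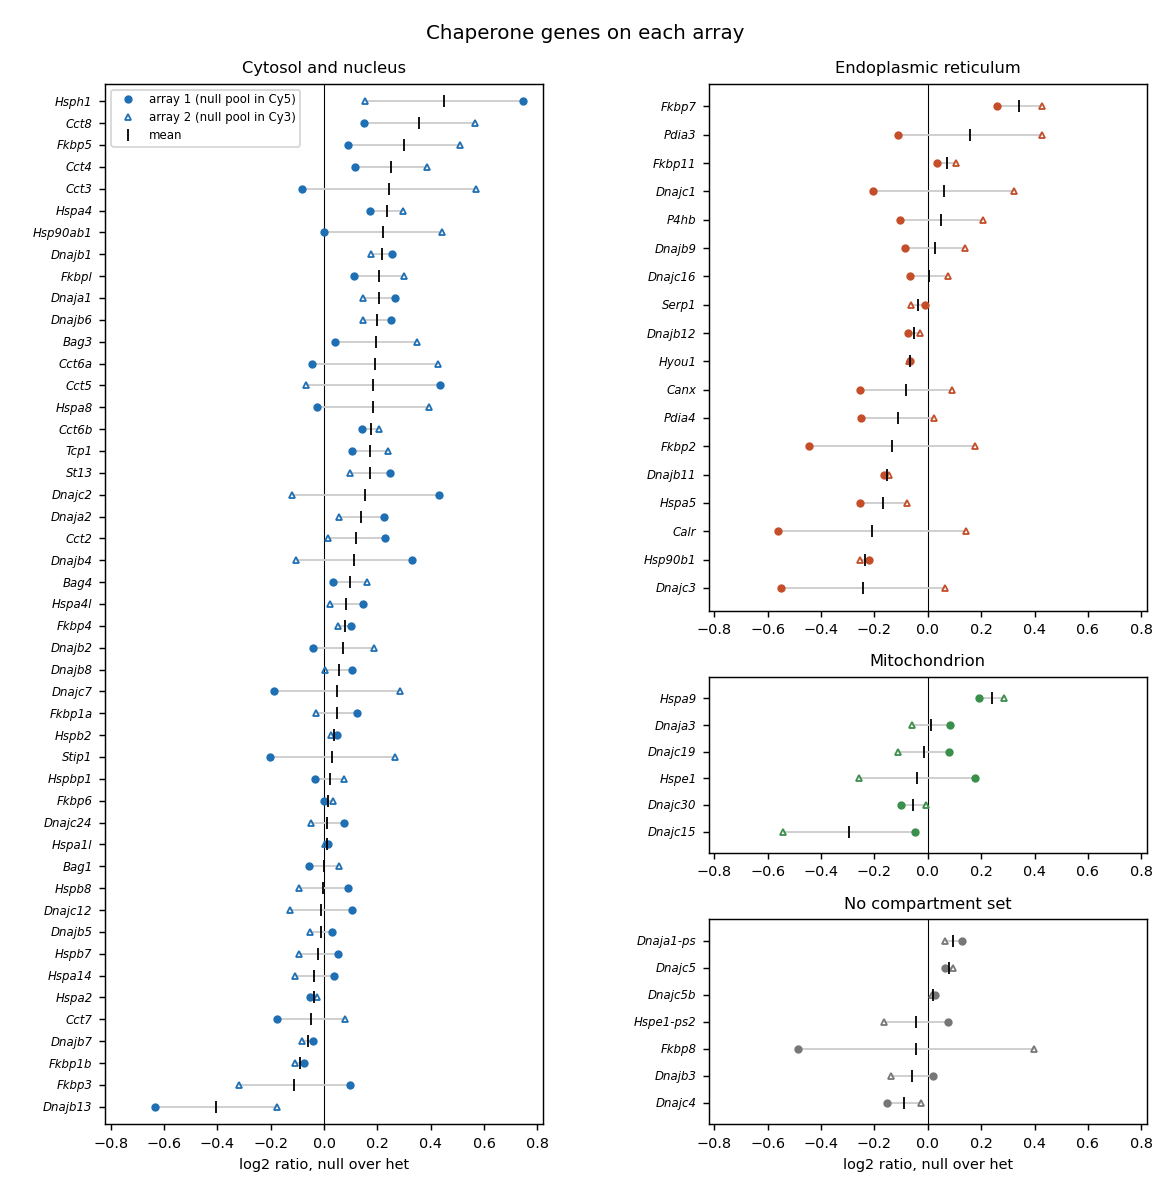
Log2 ratio of null over het for the 78 chaperone genes that passed the background filter, by compartment; filled circles are array 1, open triangles array 2 and ticks the mean. Cytosolic members lie mostly right of 0, while the reticulum members lie left of 0 on array 1 (16 of 18) and mostly right of it on array 2 (12 of 18), an order that turned under median centring.

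The direction of the reticulum group was not shared by the arrays. On array 1, 16 of 18 reticulum members were lower in the null pool and the median was -0.14. On array 2, 12 of 18 were higher and the median was 0.08. Read as red over green, which swaps the genotypes between arrays, 10 of 18 (55.6%) were lower in Cy5 on both arrays and 0 were higher in Cy5 on both, against 22.6% and 30.4% of all genes and 21.4% and 27.1% of the brightest. Their median red over green ratio was -0.10. In the disulfide isomerase and lectin group all 5 members (Calr, Canx, P4hb, Pdia3 and Pdia4) were lower in Cy5 on both arrays, but 0 of 5 were under median centring. This order of the arrays turned with the normalisation. Under median centring, 1 of 18 reticulum members was lower and 10 were higher in Cy5 on both arrays, against 36.9% and 47.2% of all genes, and the null over het medians were 0.16 on array 1 and -0.23 on array 2. The median of the mean ratios was -0.07 there. The part of the dyes in these ratios was not tested. After loess, 3 of 6 mitochondrial members were higher and 0 lower in Cy5 on both arrays. Of the 47 cytosolic members, 10 were lower and 11 higher in Cy5 on both, against 22.6% and 30.4% of all genes. Under median centring, 5 of 6 mitochondrial members were higher and 1 lower in Cy5 on both arrays. Of the cytosolic members, 33 of 47 were then higher and 7 lower, against 47.2% and 36.9% of all genes.

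**Figure D2:**
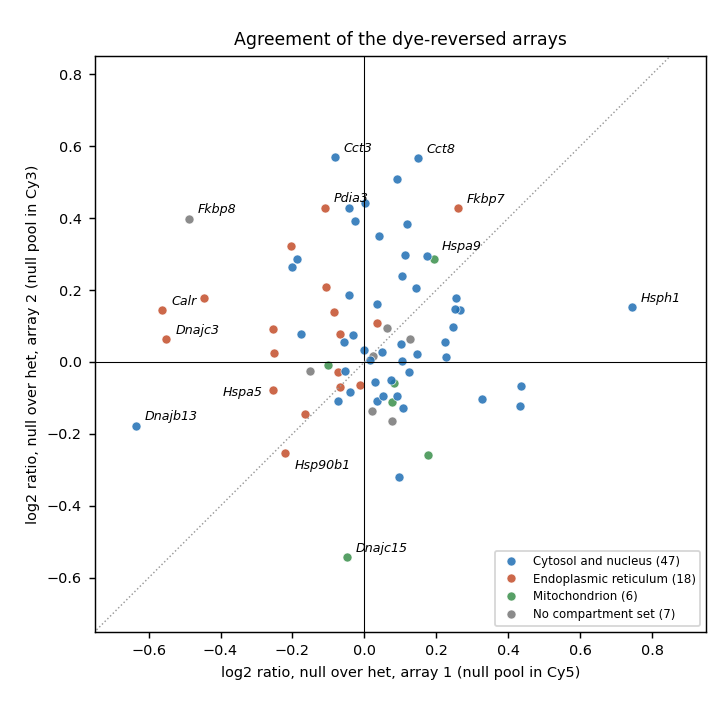
Log2 ratio of null over het on array 1 (horizontal) against array 2 (vertical) for the 78 members, coloured by compartment; the dotted line is equality. Points at the upper left and lower right (37 members) have opposite signs on the arrays, and among the reticulum members they all lie in the upper left.

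Over the 78 members, the ratios of the arrays correlated with r = -0.00828, against r = 0.32 over all 18517 genes. Both arrays carry the same pair of RNA pools, and genes are not independent replicates, so these coefficients only describe how far the hybridisations match.

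The largest ratio belonged to Hsph1 (HSP105), an HSP110 protein that makes HSP70 release its client. Its log2 signal was 9.91 in the null pool and 9.17 in the het pool on array 1, and 9.41 and 9.26 on array 2. The null pool was higher on both arrays, but the size was not settled, with ratios of 0.74 and 0.15 and a mean of 0.45 ± 0.42 (1.36-fold). Its relative Hspa4 had 9.02 in the null pool and 8.84 in the het pool on array 1, and 8.92 and 8.63 on array 2, for a mean ratio of 0.23 ± 0.09. A second Hspa4 probe, named by the symbol in its description, gave -0.03 ± 0.02, so the probes for that gene disagreed, and a further one carried an outlier flag. With flagged spots kept, the flagged probe stands for the gene as its brightest, and the gene's ratio becomes -0.56, so no direction is settled for Hspa4. Hspa4l, the third of the group, had 0.08 ± 0.09.

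Promoter letters are shown for Hsph1 and for the members that hold a triple repeat, because heat shock factor sites are what the cytosolic class is known for. Promoters from RefSeq (GRCm38.p6) were found for 66 of the 83 members, and the 250 bases before the start were searched on both strands. The pair GAANNTTC or TTCNNGAA was in 8 of 40 cytosolic promoters (20%), against 14.5% of the promoters of all 27025 genes. The triplet, in which GAANNTTC is followed after 2 more bases by GAA, contains the pair and was in 2 of 66 members (3.03%), against 0.514% of all genes. Bases matching the pair are in capitals in the following windows, each written 5′ to 3′ on the gene's strand.
Hsph1, chr5:149636337-149636399, minus strand: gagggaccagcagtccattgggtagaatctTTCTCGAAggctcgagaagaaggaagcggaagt
Dnajb6, chr5:29735822-29735889, plus strand: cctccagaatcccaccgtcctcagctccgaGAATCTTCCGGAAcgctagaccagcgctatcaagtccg
Hspe1, chr1:55088029-55088096, plus strand: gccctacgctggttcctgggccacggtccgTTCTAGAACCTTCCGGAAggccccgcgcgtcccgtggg
The match begins 33 bases before the start in Hsph1, 46 in Dnajb6 and 89 in Hspe1. Of the 7 cytosolic members that hold the pair and passed the filter, 5 were higher in null on both arrays and 0 lower, with a median ratio of 0.18. The 32 cytosolic members without the pair had a median of 0.04, with 12 higher and 4 lower on both arrays. Of all genes, 22.7% were higher and 24.3% lower on both. The medians with and without the pair were 0.27 and 0.04 on array 1, but 0.05 and 0.05 on array 2, so the gap was seen on array 1 only. Outside the cytosol the pair was also in the windows of Fkbp7, Serp1 and Hspe1, whose mean ratios were 0.34, -0.04 and -0.04. A match to letters is a description of the window, and factor binding was not measured.

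**Figure D3:**
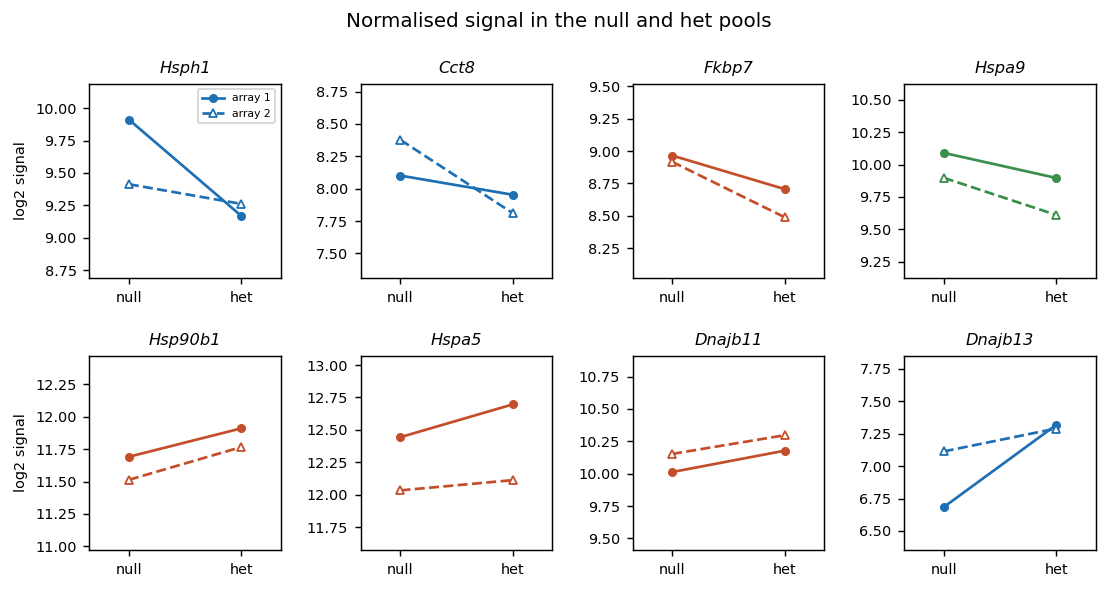
Normalised log2 signal of 8 members in the null pool (left) and the het pool (right) of each array, with array 1 as filled circles and solid lines and array 2 as open triangles and dashed lines; every panel spans the same height. After loess, as drawn, all lines slope down from null to het for Hsph1, Cct8, Fkbp7 and Hspa9 on both arrays. They slope up for Hsp90b1, Hspa5, Dnajb11 and Dnajb13. Under median centring, which is not drawn, Hspa9 was not higher in null on both arrays.

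Chaperonin subunits were the family with the highest median among those with over 3 members. All 9 measured subunits passed the filter, the median ratio was 0.18, 5 of 9 were higher in null on both arrays and 0 were lower on both, against 22.7% and 24.3% of all genes. Under median centring only 2 of 9 were higher on both, and the median was 0.52 on array 1 and -0.26 on array 2. Cct8, the theta subunit, had a log2 signal of 8.10 in the null pool and 7.95 in the het pool on array 1, and 8.38 and 7.81 on array 2. Its ratios of 0.15 and 0.57 gave a mean of 0.36 ± 0.30 (1.28-fold). Cct4, the delta subunit, had 9.68 in null and 9.56 in het on array 1, and 10.08 and 9.70 on array 2, with a mean of 0.25 ± 0.19. Tcp1, the alpha subunit, had 0.17 ± 0.10 and Cct6b 0.17 ± 0.04, and both were higher on each array, as was Cct2 (0.12 ± 0.15). Cct3 (0.24 ± 0.46), Cct5 (0.18 ± 0.36) and Cct6a (0.19 ± 0.33) had opposite signs on the arrays. Cct7 stood apart with a mean of -0.05 ± 0.18. Without the chaperonin, the other 38 cytosolic members had a median of 0.05. Of them, 17 were higher and 4 lower on both arrays after loess, against 22.7% and 24.3% of all genes.

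Among the HSP70 proteins, the constitutive Hspa8 (HSC70) gave opposite signs on the arrays. It had 12.12 in the null pool and 12.15 in the het pool on array 1, and 12.31 and 11.91 on array 2, for a mean ratio of 0.18 ± 0.30. Hsp90ab1, the constitutive HSP90, also rested on array 2, with ratios of 0.00 on array 1 and 0.44 on array 2 (0.22 ± 0.31). The inducible Hsp90aa1 has no value in the counts because its spot on array 2 carried an outlier flag. With the flag set aside, its log2 signal was 12.84 in null and 12.27 in het on array 1, and 12.34 and 12.06 on array 2, a ratio of 0.42 ± 0.21. Hspa14 (-0.04 ± 0.10), Hspa1l (0.01 ± 0.01) and Hspa2 (-0.04 ± 0.02), the last mainly known from the testis, were near 0, although Hspa2 ranged from -0.15 to 0.19 over the settings with both arrays. Close copies such as these can share sequence with a probe, and cross-hybridisation was not tested. The small heat shock proteins Hspb2, Hspb7 and Hspb8 had means between -0.02 and 0.04.

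After loess, several cytosolic partners of HSP70 were higher in null on both arrays, although the J-domain family described next was balanced. Under median centring only 6 of 47 cytosolic members were higher on both, 2 of them chaperonin subunits. The partners named here therefore did not all keep that sign on both arrays. Dnajb1, a stress-induced J-domain protein, had 9.30 in the null pool and 9.04 in the het pool on array 1, and 9.06 and 8.88 on array 2. Its arrays were close after loess, with a ratio of 0.22 ± 0.05. Dnaja1 (0.20 ± 0.09) and Dnajb6 (0.20 ± 0.07), which keep unfolded chains from aggregating, and Dnaja2 (0.14 ± 0.12) were also higher on both arrays. A separate probe, described in words as DnaJ homolog, subfamily B, member 6 and not in the counts, did not repeat the Dnajb6 ratio. It read 0.06 on array 1 and -0.10 on array 2 (-0.02 ± 0.11). The Dnaja1 pseudogene probe read 0.10 ± 0.04, and whether it detects Dnaja1 itself was not tested. The release factors Bag3 (0.20 ± 0.22) and Bag4 (0.10 ± 0.09) were higher on both arrays and Bag1 was at -0.00 ± 0.08. St13 (Hip), which stabilises the HSP70 cycle, had 0.17 ± 0.10 and was higher on both. Stip1 (Hop), which joins HSP70 to HSP90, had -0.20 on array 1 and 0.26 on array 2.

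**Figure D4:**
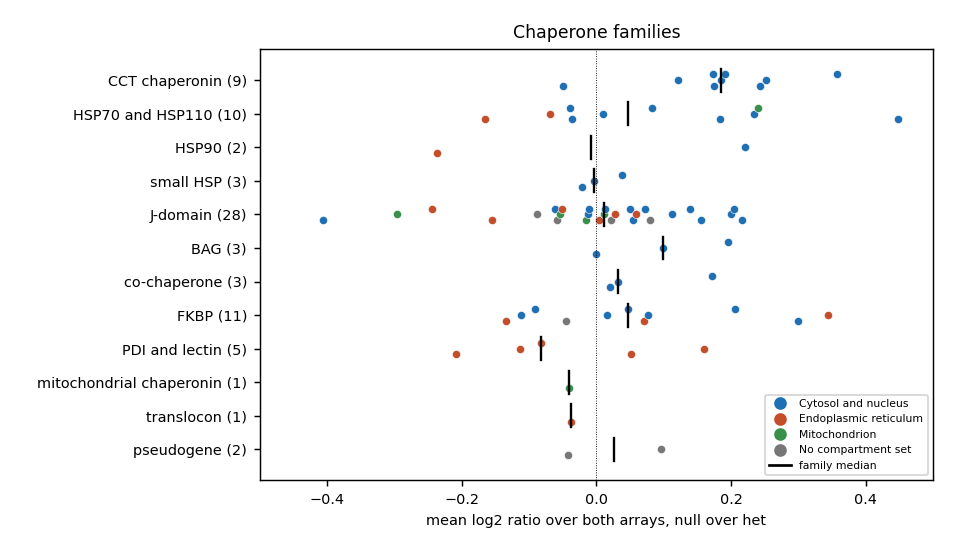
Mean log2 ratio of null over het for each member by family, coloured by compartment, with the number of members in brackets and the family median as a black bar. The chaperonin subunits sit to the right (median 0.18), and the disulfide isomerase and lectin group has a median of -0.08.

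On both arrays 7 of 28 J-domain members were higher and 7 lower, against 22.7% and 24.3% of all genes. The family as a whole was balanced, with a median of 0.01. It also held the member with the lowest ratio. Dnajb13, known as a part of cilia and sperm tails, had a log2 signal of 6.68 in the null pool and 7.32 in the het pool on array 1, and 7.11 and 7.29 on array 2. Both arrays put the null pool lower, with ratios of -0.63 and -0.18 and a mean of -0.41 ± 0.32 (1.32-fold lower). Over the 9 other settings that keep both arrays, its mean ranged from -0.71 to -0.39. The ribosome-bound Dnajc2 (0.43 on array 1 and -0.12 on array 2), Dnajb4 (0.33 and -0.10) and the HSP70 and HSP90 partner Dnajc7 (-0.19 and 0.29) had opposite signs. The testis-enriched Dnajb7 (-0.06 ± 0.03) and Dnajb8 (0.05 ± 0.07) lay near 0, as did Dnajc12 (-0.01 ± 0.17), Dnajb5 (-0.01 ± 0.06) and Dnajc24 (0.01 ± 0.09).

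The FKBP genes encode prolyl isomerases, and those that bind HSP90 matter for steroid receptors. Fkbp5 (FKBP51) had 7.90 in null and 7.81 in het on array 1, and 7.84 and 7.33 on array 2. It was higher in null on both arrays, with 0.30 ± 0.30 (1.23-fold), but array 1 fell short of the 1.1-fold asked of each array. Its counterpart Fkbp4 (FKBP52), known as a positive partner of the progesterone receptor, had 0.08 ± 0.04. Fkbpl had 0.21 ± 0.13. Fkbp1a (0.05 ± 0.11) and Fkbp6 (0.02 ± 0.02) were close to 0, whereas Fkbp3 (-0.11 ± 0.30) and Fkbp1b (-0.09 ± 0.02) were negative in the mean. Fkbp8, an anchored relative in the outer mitochondrial membrane, had -0.49 on array 1 and 0.40 on array 2, the widest disagreement in the set (SD 0.63).

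Since the arrays differed for the reticulum group, its members are given one by one. Hsp90b1 (GRP94), the reticulum HSP90, had a log2 signal of 11.69 in the null pool and 11.91 in the het pool on array 1, and 11.51 and 11.77 on array 2. The null pool was lower on both arrays by nearly the same amount, -0.24 ± 0.02 (1.18-fold). Dnajb11 (ERdj3), the J-domain partner that brings clients to BiP, agreed as closely. It had 10.01 in null and 10.18 in het on array 1, and 10.15 and 10.30 on array 2, a ratio of -0.15 ± 0.01. The small SDs of Hsp90b1 and Dnajb11 hold after loess. Under median centring the reticulum medians were 0.16 on array 1 and -0.23 on array 2, and the Dnajb11 mean was -0.21. Hspa5 (BiP), the reticulum HSP70, had 12.44 in null and 12.70 in het on array 1, and 12.03 and 12.11 on array 2. Its ratio was -0.17 ± 0.12. Hyou1 (GRP170), which makes BiP release its clients, read -0.07 on each array, but its mean ranged from -0.39 to 0.04 over the settings with both arrays, so its sign is not settled. The last 2 members lower on both arrays were Serp1 (-0.04 ± 0.04), a translocon protein, and Dnajb12 (-0.05 ± 0.03).

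Other reticulum genes were lower in null on array 1 only. Calr (calreticulin) had 9.96 in null and 10.52 in het on array 1, but 10.08 and 9.94 on array 2, so its mean of -0.21 ± 0.50 has no settled sign. Dnajc3 (p58IPK) had 8.90 in null and 9.45 in het on array 1, and 9.51 and 9.45 on array 2, with a mean of -0.24 ± 0.43. Canx (-0.08 ± 0.24), Pdia4 (-0.11 ± 0.19) and Fkbp2 (-0.13 ± 0.44) shared that pattern. Pdia3 (0.16 ± 0.38), P4hb (0.05 ± 0.22), Dnajb9 (0.03 ± 0.16) and Dnajc1 (0.06 ± 0.37) had opposite signs as well, with a mean above 0. Other probes did not repeat the opposite signs of P4hb and Dnajc1. A probe described in words as the prolyl 4-hydroxylase beta subunit, not in the counts, read 0.015 on each array. A second, dimmer Dnajc1 probe read 0.005 on array 1 and 0.022 on array 2. Dnajc16 (0.00 ± 0.10) had -0.07 on array 1 and 0.08 on array 2. Fkbp7, a reticulum prolyl isomerase that binds BiP, was the exception. It had 8.97 in the null pool and 8.71 in the het pool on array 1, and 8.92 and 8.49 on array 2, a ratio of 0.34 ± 0.12 (1.27-fold higher). Fkbp11, of the same family, had 0.07 ± 0.05.

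The reticulum stress element, CCAAT and CCACG separated by 9 bases, was found in the windows of 5 of 17 reticulum promoters (29.4%), 0 of 49 other members' promoters and 0.13% of all promoters. Its holders are shown because they include the best known members of the unfolded protein response. Capitals mark the element, which in Calr lies on the opposite strand.
Hspa5, chr2:34771995-34772073, plus strand: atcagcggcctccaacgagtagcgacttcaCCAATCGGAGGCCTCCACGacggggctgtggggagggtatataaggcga
Hsp90b1, chr10:86705608-86705686, minus strand: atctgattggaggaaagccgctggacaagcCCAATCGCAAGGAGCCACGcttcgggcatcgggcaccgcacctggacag
Calr, chr8:84847045-84847123, minus strand: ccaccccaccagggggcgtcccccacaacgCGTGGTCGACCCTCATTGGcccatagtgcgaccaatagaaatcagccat
Canx, chr11:50325770-50325848, minus strand: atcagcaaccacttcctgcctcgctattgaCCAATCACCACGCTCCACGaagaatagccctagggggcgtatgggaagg
Dnajc3, chr14:118937797-118937875, plus strand: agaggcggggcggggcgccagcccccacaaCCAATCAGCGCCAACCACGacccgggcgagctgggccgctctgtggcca
All 5 holders had a negative mean ratio, between -0.24 and -0.08, with a median of -0.21. On array 1 all 5 were lower in the null pool, and on array 2 only Hspa5 and Hsp90b1 were. Under median centring the order of the arrays turned (median 0.03 on array 1, -0.45 on array 2), and the median of the means was -0.26. The 12 reticulum members without the element in this window had a median of 0.02, with 5 negative and 7 positive means.

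Other genes of reticulum folding and the unfolded protein response, outside the member rule, were listed for comparison. Of 22 measured among 27, 1 was lower and 0 higher by the 1.2-fold rule, against 1.75% and 2.65% of all genes. On both arrays 8 (36.4%) were lower and 6 (27.3%) higher, against 24.3% and 22.7% of all genes. The median was -0.03. Sdf2l1, a reticulum protein of the BiP complex, was the one that passed, with -0.51 on array 1 and -0.29 on array 2 (-0.40 ± 0.16). Named after their values were seen, Herpud1 (-0.26 ± 0.04), Xbp1 (-0.24 ± 0.11) and Erp29 (-0.22 ± 0.04) were lower on both arrays, Sdf2 (0.11 ± 0.04) and Erp44 (0.07 ± 0.08) were higher on both, and Ddit3 (-0.03 ± 0.06) and Atf4 (0.05 ± 0.12) lay near 0. Of 10 measured cytosolic folding factors none passed, 1 was higher and 1 lower on both arrays, and Ppid was farthest from 0 at 0.27 ± 0.44.

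Mitochondrial members did not share a direction. Hspa9 (mortalin), the matrix HSP70 that pulls in imported proteins, had a log2 signal of 10.09 in the null pool and 9.90 in the het pool on array 1, and 9.90 and 9.61 on array 2. After loess both arrays put the null pool higher, at 0.24 ± 0.07 (1.18-fold). Under median centring 0 of 6 mitochondrial members, Hspa9 included, were higher on both arrays. Hspe1, the lid of the matrix chaperonin, had 10.58 in null and 10.41 in het on array 1, and 10.20 and 10.46 on array 2, so its sign was not settled (-0.04 ± 0.31). The Hspe1 pseudogene probe read -0.04 ± 0.17 with the same order of signs. Dnajc15, a J-domain protein of the inner membrane, had 9.96 in null and 10.01 in het on array 1, and 9.49 and 10.03 on array 2, a ratio of -0.30 ± 0.35 that rests on array 2. Dnaja3 (0.01 ± 0.10), Dnajc19 (-0.02 ± 0.13) and Dnajc30 (-0.05 ± 0.07) lay near 0. Of 8 measured mitochondrial folding and protease genes outside the rule none passed, with Clpx highest at 0.19 ± 0.22.

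Probes that the files describe in words, with no symbol, were read separately and are not in the counts. The probe described as heat shock protein of 60 kDa (AK088844), partner of Hspe1, gave 0.05 ± 0.12. That for the 25 kDa heat shock protein (AK003119) gave -0.04 ± 0.06, that for hsp68 (M12571) -0.01 ± 0.12, and that for heat shock transcription factor 1 (X61753) 0.03 ± 0.05. All 8 such probes lay between -0.04 and 0.09. Members with no compartment set, among them Dnajc5 (0.08 ± 0.02) and Dnajc4 (-0.09 ± 0.09), had means between -0.09 and 0.10. The mean of Dnajc5 was 0.27 by the scanner's log ratio, 0.24 with normexp offset 0 and 0.20 under median centring.

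**Figure D5:**
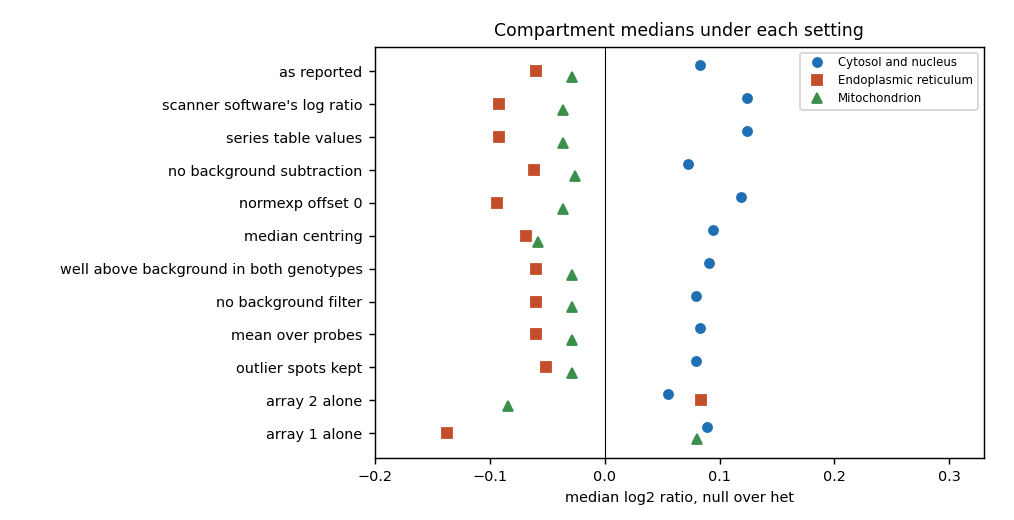
Median log2 ratio of null over het in each compartment as reported and under 11 alternative settings. The cytosolic median (circles) stays above 0 in each, while the reticulum median (squares) is 0.08 on array 2 alone and -0.14 on array 1 alone, and the mitochondrial median (triangles) also changes sign between the arrays. The settings with 1 array alone use loess. Under median centring the cytosolic median was 0.30 on array 1 and -0.16 on array 2, which is not drawn.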

How the data were processed

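Granulosa RNA of 1 Esr2-/- and 1 Esr2+/- pool was compared on 2 dye-reversed arrays. Per the labels' protocols, 500 ng of total RNA was amplified and 750 ng of each labelled cRNA was hybridised for 17 h. The deposited spot and background intensity values came from Agilent Feature Extraction A.7.5.1, per the file headers. The deposited LogRatio is log10 of red over green after spatial detrending and dye normalisation, per the file headers, and its deposited error-model p-value was not used. The deposited series table holds log2 red over green, which matched the scanner ratio within 0.001 for 99.8% of spots on each array; its medians were 0 and 0.0022, and the genotype direction was taken from the dye labels.

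In R 4.3.3 with limma 3.58.1, mean spot intensity was background-corrected (normexp, offset 50) and loess-normalised within arrays, with control spots at weight 0. Outlier spots (58 and 95) were left out. Ratios of array 2 were turned, spots of a probe averaged, and the brightest probe stood for a gene. Python 3.11.15 made the counts. Of 20868 probes, 8947 were named by accession, 406 by a symbol and 390 by an older symbol in the description. Size rules were tested on simulated ratios with noise drawn separately for each array, so an error shared by the arrays was not covered.

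Members, lists and rules were chosen with earlier results of these data known. Members past the 1.2-fold rule were given first, then those with the largest ratios in each family and a fixed set of well-known chaperones. From lists outside the member rule, those past the 1.2-fold rule or otherwise the one farthest from 0 were named, and other genes of those lists are marked as named after their values were seen. The triplet motif and the counts by dye, here and under each setting, were added after the data were seen. With 1 pool per genotype no p-value was computed. The number of arrays limits the precision.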

Additional observations from a re-analysis of the deposited data

How the results depend on the processing

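Of 11 alternatives, all planned, 9 kept both arrays. The 2-fold counts of 0 higher and 0 lower held in all 11. For cytosolic members the median of 0.08 was 0.12 when taken from the scanner's log ratio, from the series table or with normexp offset 0. After loess it was 0.0892 on array 1 alone and 0.0548 on array 2 alone, but under median centring 0.30 and -0.16. For all members, the median of 0.03 was 0.0312 on array 1 alone and 0.0547 on array 2 alone. The reticulum median of -0.06 was between -0.09 and -0.05 with both arrays but -0.14 and 0.08 with 1 array alone, and the mitochondrial median of -0.03 was 0.08 and -0.08. The 1.2-fold counts of 3 higher and 1 lower were 5 and 2 by the scanner's ratio or the series table, where the shares of all genes were 5.70% and 3.75%. Array 1 alone gave 5 higher and 5 lower, and array 2 alone 17 and 2, where no second array has to agree. The share of all genes past 1.2-fold on 1 array alone was not computed, so these counts cannot be read as a shift of the members. With outlier spots kept, 4 were higher, Hsp90aa1 being added. Under median centring, 9 members were higher and 5 lower on both arrays, in place of 28 and 13 (cytosolic 6 and 1, in place of 22 and 4; mitochondrial 0 and 0, in place of 1 and 2), while 7.88% and 7.99% of all genes were; the cause was not tested. The mitochondrial count lower on both arrays was 1 with the scanner software's ratio and the series table. Chaperonin subunits higher on both arrays were 2 of 9 under median centring and 5 of 9 in the other settings with both arrays. Of 81 members with a value, 67 had a mean of one sign in every setting with both arrays that gave them a value. For Dnaja4, Dnajc28 and Hsf2 these were only 2 settings with the same value, so their sign could not vary. Some settings, such as the mean over probes, also leave a gene with 1 probe unchanged, so the count says little about robustness. No paired analysis was possible because each genotype gave 1 pool. Signal over background limits dim members such as Dnajb13 and Hyou1.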
